A study of Mus musculus with 2 samples.

Results

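The interferon gamma-induced GTPases described here are 10 mouse genes of the guanylate-binding protein and immunity-related GTPase families, out of 32285 genes counted. They were listed by name (Gbp2, Gbp3, Gbp4, Gbp5, Gbp6, Gbp7, Gbp8, Irgm1, Igtp and Iigp1), and all 10 had at least 20 unique molecular identifiers (UMIs, each one counted transcript molecule) in each library and passed the filter on low counts. Single-cell RNA was counted in cells taken from MB49 tumours, a mouse bladder cancer line that grows in C57BL/6J hosts. Tumours were collected 14 days after transplantation from C57BL/6J animals of 12 to 14 weeks, with 1 library from males and 1 from females and no other treatment in the labels. How many mice each library holds is not stated. The p-values below set differences between classes, or by Ifng detection, only against their variation between these 2 libraries. The spread of each gene was estimated partly from that of all genes. A male library against a female library has no replicate, so no test was made of sex.

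The labels call the sorted material viable CD4+ T cells, but most barcodes (the droplet tags that stand for single cells) carried Cd8 transcripts. Of 3468 female and 3519 male kept barcodes, 2245 and 1940 held at least 2 UMIs of Cd8a and Cd8b1 with no Foxp3 and are called Cd8 barcodes. Treg barcodes held Foxp3 and no Cd8 UMI (233 and 345), and other Cd4 barcodes held Cd4 with neither Foxp3 nor Cd8 (248 and 231). Keratin-positive barcodes held at least 10 UMIs of Krt8 and Krt18, the keratins of epithelial and carcinoma cells (38 and 27). The remaining 712 female and 979 male barcodes entered no class, 20.5% and 27.8% of each library. Cd3e, a chain of the T cell receptor complex, lay between 804 and 1123 CPM (UMIs per 1000000 UMIs of the class) in the 3 T cell classes of both libraries, against 67.7 and 33.0 CPM in keratin-positive barcodes. Listed epithelial markers outside the gate were low in keratin-positive barcodes of the female and male libraries. Krt7 stood at 5.72 and 8.65 CPM, Krt19 at 0.954 and 0.786, Cldn4 at 0 and 0.786, and Epcam at 0 in both. Median UMIs per barcode in the female and male libraries were 10507 and 8860 in Cd8, 6426 and 5993 in Treg, 5204 and 5219 in other Cd4, and 53141 and 43236 in keratin-positive barcodes. Of the keratin-positive barcodes, 9 also passed the Cd8 gate and 2 the Treg gate. The libraries shared 16 barcode sequences, 12 of them among kept barcodes.

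Interferon gamma, made by activated T and natural killer cells, binds the receptor chains Ifngr1 and Ifngr2, which signal through the kinases Jak1 and Jak2. Promoters of its target genes often carry GAS elements and ISRE elements, and Irf1 binds the latter. Guanylate-binding proteins are large GTPases that assemble on the vacuoles of intracellular pathogens and help cytosolic sensors reach their contents. Immunity-related GTPases are smaller, and include effectors that coat such vacuoles (Iigp1, also called Irga6) and regulators that hold the effectors inactive on the cell's own membranes (Irgm1 and Igtp, also called Irgm3). In tumours, these genes are widely read as targets of interferon signalling in the cells that express them.

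RefSeq start-site windows (GRCm38.p6, 250 bases before to 50 after a start, 300 bases) were found for 6 of the 10 genes, in 7 windows. They are shown because these genes carry the binding letters of the pathway within a short distance of the start. A GAS core was taken as TTCNNNGAA and an ISRE core as GAAANNGAA, each searched on both strands, and matches are in capitals. An ISRE core lay in a window of all 6 genes (Gbp2, Gbp3, Gbp5, Gbp7, Irgm1 and Igtp), against 8.56% of 32851 RefSeq windows of the same length. A GAS core lay in those of 3 genes (Gbp5, Gbp7 and Igtp), against 8.30% of windows. Both cores were in 3 windows, against 1.07%, and no GAS match overlapped an ISRE match. The second window of Gbp3 held neither. A match describes letters and shows no binding. The windows printed are Gbp2 (chr3:142620413-142620712, plus strand), Gbp5 (chr3:142496684-142496983, plus), Gbp7 (chr3:142530086-142530385, plus), Irgm1 (chr11:48871371-48871670, minus) and Igtp (chr11:58199306-58199605, plus), each 5′ to 3′.
Gbp2: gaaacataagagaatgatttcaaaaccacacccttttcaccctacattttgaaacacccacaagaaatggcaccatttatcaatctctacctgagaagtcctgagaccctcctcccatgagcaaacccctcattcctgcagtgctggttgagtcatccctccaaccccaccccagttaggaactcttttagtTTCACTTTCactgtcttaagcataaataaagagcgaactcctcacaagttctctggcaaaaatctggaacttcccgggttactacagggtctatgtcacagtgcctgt
Gbp5: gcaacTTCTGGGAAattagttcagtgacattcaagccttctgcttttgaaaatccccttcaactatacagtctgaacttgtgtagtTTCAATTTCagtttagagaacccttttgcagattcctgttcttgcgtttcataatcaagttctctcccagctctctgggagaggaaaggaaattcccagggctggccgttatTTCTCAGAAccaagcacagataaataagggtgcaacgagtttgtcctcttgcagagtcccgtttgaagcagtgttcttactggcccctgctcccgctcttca
Gbp7: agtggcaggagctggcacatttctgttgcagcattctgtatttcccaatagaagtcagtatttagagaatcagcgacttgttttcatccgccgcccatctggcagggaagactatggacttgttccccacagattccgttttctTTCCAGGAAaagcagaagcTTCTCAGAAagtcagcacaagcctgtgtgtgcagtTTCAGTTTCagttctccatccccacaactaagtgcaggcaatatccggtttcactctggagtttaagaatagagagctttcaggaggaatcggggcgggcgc
Irgm1: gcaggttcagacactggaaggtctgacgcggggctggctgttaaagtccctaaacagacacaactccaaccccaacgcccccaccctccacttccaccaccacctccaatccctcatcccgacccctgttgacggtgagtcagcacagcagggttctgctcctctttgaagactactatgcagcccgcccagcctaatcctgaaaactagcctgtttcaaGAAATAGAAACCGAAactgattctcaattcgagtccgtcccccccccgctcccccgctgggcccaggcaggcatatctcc
Igtp: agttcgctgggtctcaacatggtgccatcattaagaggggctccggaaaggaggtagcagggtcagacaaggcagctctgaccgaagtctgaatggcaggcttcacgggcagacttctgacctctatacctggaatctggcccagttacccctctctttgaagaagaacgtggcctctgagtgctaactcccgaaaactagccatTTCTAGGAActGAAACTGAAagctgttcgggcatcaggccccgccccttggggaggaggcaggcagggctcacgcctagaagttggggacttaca

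**Figure D1:**
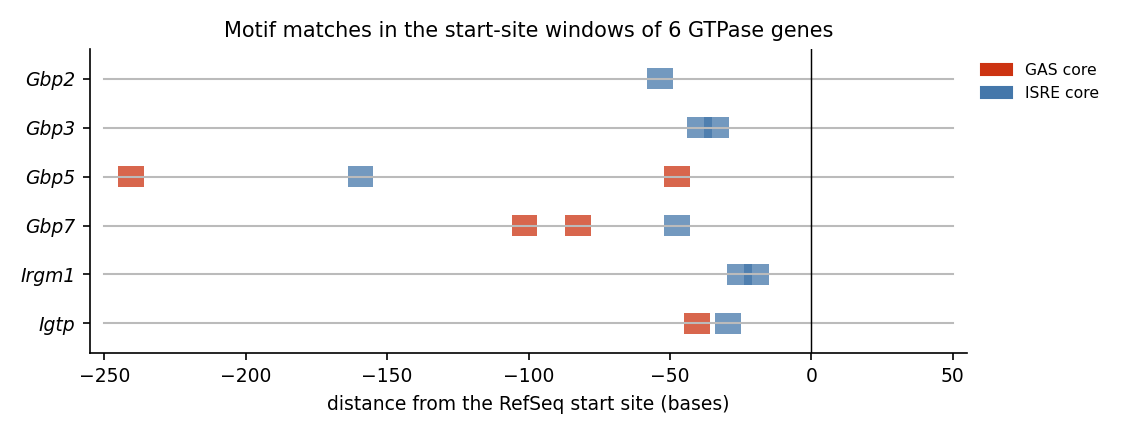
Motif matches by distance from the RefSeq start site (x axis, bases) in the windows of 6 genes (grey lines); red boxes are GAS cores and blue boxes ISRE cores, each 9 bases long. The ISRE cores of Gbp2, Gbp3, Gbp7, Irgm1 and Igtp start between -58 and -24 bases from the start site, and that of Gbp5 at -164.

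The distances differed between the genes. The first base of the ISRE core lay at -58 in Gbp2, -52 in Gbp7 and -34 in Igtp. Irgm1 held 2 overlapping ISRE cores, at -30 and -24, and Gbp3 another overlapping pair at -44 and -38. GAS cores began at -245 and -52 in Gbp5, at -106 and -87 in Gbp7 and at -45 in Igtp, where the GAS and ISRE cores stood next to each other. Windows of Gbp4, Gbp6, Gbp8 and Iigp1 were not analysed here.

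Treg barcodes held the highest share of GTPase transcripts of the 4 classes. The 10 genes together took 1472 (female library) and 1296 CPM (male), against 694 and 565 CPM in other Cd4, 434 and 410.0 in Cd8, and 279.9 and 199.8 in keratin-positive barcodes. The 2 libraries gave the same order. Treg exceeded Cd8 by a log2 of 1.71 ± 0.07 (SD, n = 2 libraries), a 3.27-fold difference. By count rather than share, a Treg barcode held on average 12.7 and 9.18 UMIs of the 10 genes and a Cd8 barcode 6.59 and 5.23, a log2 difference of 0.88.

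Other Cd4 barcodes changed order with the scale. By share they exceeded Cd8 by a log2 of 0.57, but per barcode they held fewer GTPase UMIs (4.44 and 3.37, a log2 of -0.60), and they held fewer UMIs of all genes. Keratin-positive barcodes had the opposite pattern, with a log2 of -0.83 against Cd8 by share and 1.04 per barcode (15.4 and 9.41 UMIs). CPM is a share of a class's RNA, and in sums less RNA per cell of one gene and more of all others cannot be told apart. Comparisons below are of shares, fitted with edgeR over all genes. Its scaling moved the median difference of all genes against plain CPM by -0.16 (log2) for Treg against Cd8, 0.16 for keratin-positive against Cd8 and -0.12 for Ifng-detected against undetected other Cd4.

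**Figure D2:**
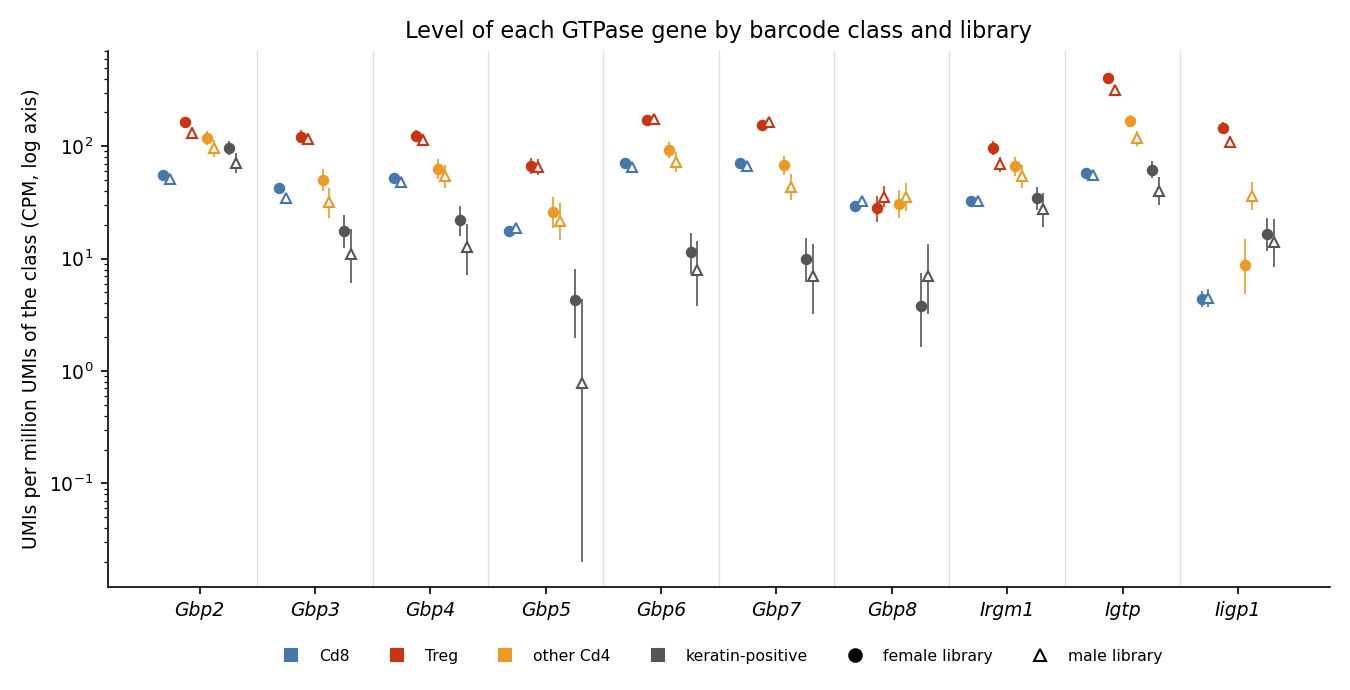
Level of each gene (x axis) in CPM on a log axis, by barcode class (colour) and library (filled circles female, open triangles male), with 95% Poisson intervals that cover counting error only. Both Treg values lie above both Cd8 values for 9 genes; those of Gbp8 lie between 28.0 and 35.6 CPM in Treg and 29.5 and 32.6 in Cd8.

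Guanylate-binding protein genes of the chromosome 3 cluster (Gbp5, Gbp7, Gbp3 and Gbp2, at chr3:142493978-142638008) stood higher in Treg than in Cd8 barcodes. Gbp2 lay at 163 CPM in female and 132 in male Treg, at 119 and 96.5 in other Cd4, at 97.3 and 71.6 in keratin-positive and at 55.2 and 51.0 in Cd8 barcodes. Both Cd8 values were the lowest of the 8, and the libraries of keratin-positive and other Cd4 overlapped. Gbp3 stood at 122 and 116 CPM in Treg, 50.4 and 31.9 in other Cd4, 42.8 and 34.6 in Cd8, and 17.6 and 11.0 in keratin-positive barcodes. Only Treg and keratin-positive were set apart, since other Cd4 and Cd8 overlapped. Gbp5, known to promote assembly of the Nlrp3 inflammasome, gave 66.9 and 65.5 CPM in Treg, 25.8 and 21.8 in other Cd4, and 17.5 and 18.8 in Cd8. In keratin-positive barcodes Gbp5 was read from 9 and 1 UMIs (4.29 and 0.786 CPM). Gbp7 stood at 154 and 165 CPM in Treg, 68.1 and 43.5 in other Cd4, 70.9 and 66.5 in Cd8, and 10.0 and 7.08 in keratin-positive barcodes, with other Cd4 and Cd8 overlapping.

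The chromosome 5 cluster (Gbp8, Gbp4 and Gbp6, at chr5:105014150-105293698) was less uniform. Gbp4 lay at 124 and 114 CPM in female and male Treg, 63.0 and 54.4 in other Cd4, 52.4 and 48.2 in Cd8 and 21.9 and 12.6 in keratin-positive barcodes. Gbp6 gave 170.2 and 175 CPM in Treg, 92.7 and 72.6 in other Cd4, 71.0 and 65.7 in Cd8 and 11.4 and 7.86 in keratin-positive barcodes, an order the libraries shared for both genes with no overlap between classes. Gbp8 differed from its neighbours, at 28.0 and 35.6 CPM in Treg, 30.9 and 35.6 in other Cd4 and 29.5 and 32.6 in Cd8, with all 3 classes overlapping. Only keratin-positive barcodes stood apart for Gbp8, at 3.81 and 7.08 CPM. Reads of this cluster can be hard to assign. Of the 50-base stretches in Gbp6 transcripts, 70.7% also occur in another gene, mostly Gm43302, against 18.1% for Gbp8, 12.7% for Gbp7 and 7.70% for Gbp4, and the annotated spans of Gbp4, Gbp8 and Gbp9 overlap. Values of Gbp6 and Gbp8 are uncertain for that reason.

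The immunity-related GTPases of chromosome 11 were highest in Treg and next in other Cd4 barcodes. Igtp, a regulator (chr11:58199556-58207591), gave 400.4 CPM in the female Treg barcodes and 313 in the male, 168 and 118 in other Cd4, 57.9 and 55.6 in Cd8, and 62.0 and 40.1 in keratin-positive barcodes. Treg and other Cd4 were each apart from the rest, while Cd8 and keratin-positive overlapped. Irgm1, the other regulator (chr11:48861968-48871683), stood at 97.3 and 69.2 CPM in Treg, 66.8 and 54.4 in other Cd4, 32.3 and 32.3 in Cd8 and 34.8 and 27.5 in keratin-positive barcodes. Igtp shares 11.8% of its 50-base stretches with Irgm2, whose annotated span overlaps its own, and Irgm1 shares 0.31%.

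Iigp1, the effector of the set (chr18:60376027-60392634), had the largest fitted difference between Treg and Cd8 barcodes of the 10. It gave 146 CPM in female and 109.7 in male Treg barcodes, against 4.40 and 4.49 in Cd8, from 292 and 268 against 150 and 111 UMIs. Other Cd4 barcodes differed between libraries, at 8.83 CPM (14 UMIs) in the female and 36.3 (50 UMIs) in the male, and keratin-positive barcodes gave 16.7 and 14.2. The female keratin-positive value rested on 4 barcodes, 1 of which held 22 of the 35 UMIs; without it the value was 6.49 CPM. In Treg, Iigp1 was spread over 91 of 233 female and 97 of 345 male barcodes, and without the highest barcode of each library it stood at 139.7 and 104 CPM.

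Against Cd8, 9 of the 10 genes were higher in Treg barcodes at an adjusted p under 0.05, where 13.7% of all 10767 genes tested were higher and 12.9% lower. The median log2 difference of the 10 was 1.25, against -0.0013 for all genes. Iigp1 rose by a log2 of 4.68 ± 0.34 (SE, adjusted p = 7.75e-05) and Igtp by 2.48 ± 0.15 (adjusted p = 3.2e-05). The guanylate-binding genes that passed rose by between 1.07 (Gbp7) and 1.71 (Gbp5), with Gbp3 at 1.48, Gbp2 at 1.31, Gbp6 at 1.18 and Gbp4 at 1.09, and Irgm1 rose by 1.19 ± 0.13 (adjusted p = 0.000561). Gbp8 gave -0.13 ± 0.16 (adjusted p = 0.588). Female Treg barcodes also held markers of other cell types. The 6 epithelial markers summed to 662 CPM there and 22.5 in the male (3 of 6 detected in each, with Krt19, Krt7 and Cldn4 at 0), and the myeloid gene Lyz2 stood at 152 and 0.818. After removal of barcodes holding such markers, 9 of 10 still passed and the summed log2 was 1.78. Among barcodes of 5000 to 10000 UMIs only, 8 passed, and Irgm1 did not (0.32, adjusted p = 0.234).

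Other Cd4 barcodes were higher than Cd8 for 4 genes, where 9.57% of all genes were higher and 10.4% lower. These were Iigp1 (log2 2.22 ± 0.50, adjusted p = 0.0184), Igtp (1.24 ± 0.15, adjusted p = 0.00182), Gbp2 (0.94 ± 0.12, adjusted p = 0.00235) and Irgm1 (0.83 ± 0.15, adjusted p = 0.00834), so all 3 immunity-related GTPases passed and 1 of 7 guanylate-binding genes did. The other guanylate-binding genes gave -0.37 (Gbp7), 0.02 (Gbp3), 0.02 (Gbp8), 0.15 (Gbp4), 0.20 (Gbp6) and 0.33 (Gbp5). The Iigp1 difference was 3.02 from the male library alone and 1.005 from the female. Among barcodes of 5000 to 10000 UMIs, 2 genes passed, and Igtp (0.57, adjusted p = 0.0846) and Irgm1 (0.30, adjusted p = 0.436) did not.

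Between Treg and other Cd4 barcodes, 7 of 10 genes were higher in Treg, where 6.72% of all genes were higher and 6.69% lower. Iigp1 rose by a log2 of 2.46 ± 0.41 (adjusted p = 0.00694), Gbp3 by 1.45 ± 0.17, Gbp7 by 1.43 ± 0.18, Gbp5 by 1.38 ± 0.25, Igtp by 1.24 ± 0.15, Gbp6 by 0.98 ± 0.14 and Gbp4 by 0.94 ± 0.15. Gbp2 (0.36, adjusted p = 0.0992), Irgm1 (0.36, adjusted p = 0.183) and Gbp8 (-0.15, adjusted p = 0.641) did not pass. Gbp2 and Irgm1 passed in both Treg and other Cd4 against Cd8 and did not pass between those 2 classes. The Iigp1 difference was 4.05 from the female library alone and 1.60 from the male.

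**Figure D3:**
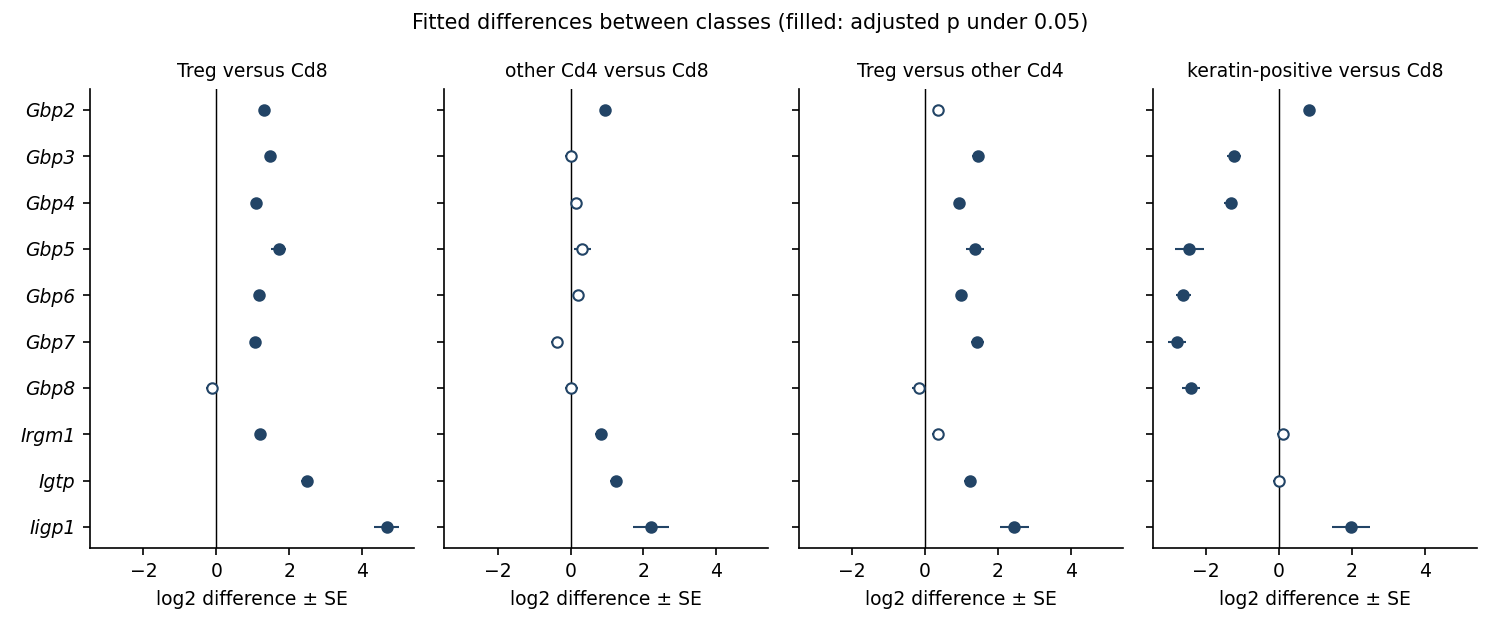
Fitted log2 difference of each gene (y axis) in 4 comparisons of barcode classes, with standard errors as bars; filled points have an adjusted p under 0.05 by edgeR over all genes. Treg against Cd8 has 9 filled points to the right of 0, and keratin-positive against Cd8 has 6 to the left and 2 to the right.

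Keratin-positive barcodes divided the 10 genes. Gbp3, Gbp4, Gbp5, Gbp6, Gbp7 and Gbp8 were lower than in Cd8 and Gbp2 and Iigp1 higher, where 33% of all genes were lower and 30.4% higher. Gbp7 fell by 2.81 on the log2 scale (SE 0.24, adjusted p = 3.65e-05), Gbp6 by 2.62 (SE 0.19), Gbp5 by 2.47 (SE 0.39) and Gbp8 by 2.43 (SE 0.25). Gbp4 and Gbp3 fell less, by 1.33 and 1.24. Gbp2 rose by 0.83 ± 0.12 (adjusted p = 0.000605) and Iigp1 by 1.98 ± 0.53 (adjusted p = 0.0109), while Igtp (0.0003 ± 0.16) and Irgm1 (0.11 ± 0.17) did not pass. The 2 higher calls are a smaller share than that of all genes. These values rest on few barcodes, and 1 barcode of each library held 38.2% and 34.1% of the Gbp2 UMIs and 43.1% and 41.2% of the Igtp UMIs. Among the 7 and 3 keratin-positive barcodes under 20000 UMIs, the 10 genes had 8 and 3 UMIs in all, 4 genes passed and Gbp2 turned to -1.42 (adjusted p = 0.0839).

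Treg barcodes had the lowest share without a GTPase UMI of the 4 classes. No GTPase UMI was found in 4.29% (95% Clopper-Pearson interval 2.08 to 7.75) of female and 4.64% (2.67 to 7.42) of male Treg barcodes. In Cd8 barcodes this share was 8.82% (7.68 to 10.1) and 12.4% (10.9 to 13.9), in other Cd4 25.0% (19.7 to 30.9) and 23.8% (18.5 to 29.8), and in keratin-positive 26.3% (13.4 to 43.1) and 29.6% (13.8 to 50.2). Depth differs between these classes, so each barcode was also thinned to 3000 UMIs. The share without a GTPase UMI was then 9.81% and 10.2% in Treg, 35.4% and 37.4% in Cd8, 35.7% and 35.6% in other Cd4, and 78.4% and 81.5% in keratin-positive barcodes. Other Cd4 and Cd8 thus stood at like shares after thinning, although the summed CPM of other Cd4 was higher. At that depth Igtp was found in 61.1% and 51.0% of Treg barcodes, 29.4% and 29.7% of other Cd4 and 16.5% and 16.5% of Cd8. Iigp1 was found in 27.0% and 18.5% of thinned Treg barcodes, against 1.23% and 1.41% of Cd8.

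In thinned Treg and Cd8 barcodes, each of the 10 genes had a positive correlation with the sum of the other 9. In thinned Treg barcodes (214 female, 313 male) the correlation of a gene with the sum of the other 9 ranged from 0.09 (Gbp8) to 0.44 (Igtp) in the female library and from 0.12 (Gbp3) to 0.34 (Igtp) in the male. In thinned Cd8 barcodes (2158 and 1805), Gbp6 had the highest value in both libraries, 0.31 and 0.31, and Gbp5 the lowest, 0.06 and 0.08. These are descriptions over barcodes of the same library and the same depth, and with sparse counts the low values are no finding. No other sets of genes were compared in this way, so the values have no background to stand beside.

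Cd8 barcodes with an Ifng UMI held a smaller share of GTPase transcripts than Cd8 barcodes without one. Ifng was found in 1040 of 2245 female and 902 of 1940 male Cd8 barcodes. It was found in 4 of 38 and 2 of 27 keratin-positive barcodes, at median depths of 53141 and 43236 UMIs. The 10 genes took 391 and 373 CPM where Ifng was found and 504 and 471 CPM where it was not, a log2 of -0.35. Barcodes with Ifng were deeper, at a median of 14325 and 12162 UMIs against 8633 and 7481, and per barcode they held more GTPase UMIs (7.96 and 6.36 against 5.41 and 4.25, a log2 of 0.57). The log2 difference of shares was -0.19 among barcodes under 20000 UMIs (524 and 433 against 559.9 and 527 CPM). It was -0.27 among those of 5000 to 10000 UMIs and -0.30 after thinning.

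Gbp2 lay at 43.6 and 38.7 CPM with Ifng and 74.1 and 71.3 without, and fell by 0.83 on the log2 scale (SE 0.13, adjusted p = 0.00483). Irgm1 lay at 27.3 and 25.7 against 40.6 and 43.1 CPM and fell by 0.67 (SE 0.14, adjusted p = 0.0187). Gbp4 lay at 46.8 and 44.4 against 61.6 and 54.6 CPM and fell by 0.35 (SE 0.09, adjusted p = 0.0486). In each of these 3 genes both libraries were lower with Ifng and the groups did not overlap. The 3 calls stand beside 2.17% of 9898 genes lower and 2.71% higher. Igtp, at 49.7 and 44.1 against 71.3 and 74.4 CPM, gave -0.65 ± 0.22 (adjusted p = 0.127), and Iigp1, at 3.31 and 2.54 against 6.19 and 7.69 CPM, gave -1.21 ± 0.38 (adjusted p = 0.0962). Gbp3 (43.6 and 36.2 against 41.6 and 31.9 CPM) and Gbp7 (70.6 and 68.5 against 71.4 and 63.3) gave 0.11 ± 0.12 and 0.04 ± 0.13. Gbp6 (-0.29 ± 0.12), Gbp5 (-0.24 ± 0.15) and Gbp8 (-0.23 ± 0.12) did not pass. None of the 10 was higher, by edgeR at an unadjusted p under 0.05 or by DESeq2, which called 2 of them lower.

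These calls depended on the setting. Without the library as a block none of the 3 passed (Gbp2 adjusted p = 0.0764). Under 20000 UMIs 1 did, and among barcodes of 5000 to 10000 UMIs Gbp2 and Iigp1 passed, while Gbp4 gave -0.06 (adjusted p = 0.973) and Irgm1 -0.37 (adjusted p = 0.574). With at least 3 Ifng UMIs against 0, 5 genes passed, Igtp (-0.86, adjusted p = 0.00485) and Iigp1 (-1.45, adjusted p = 0.0304) among them.

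**Figure D4:**
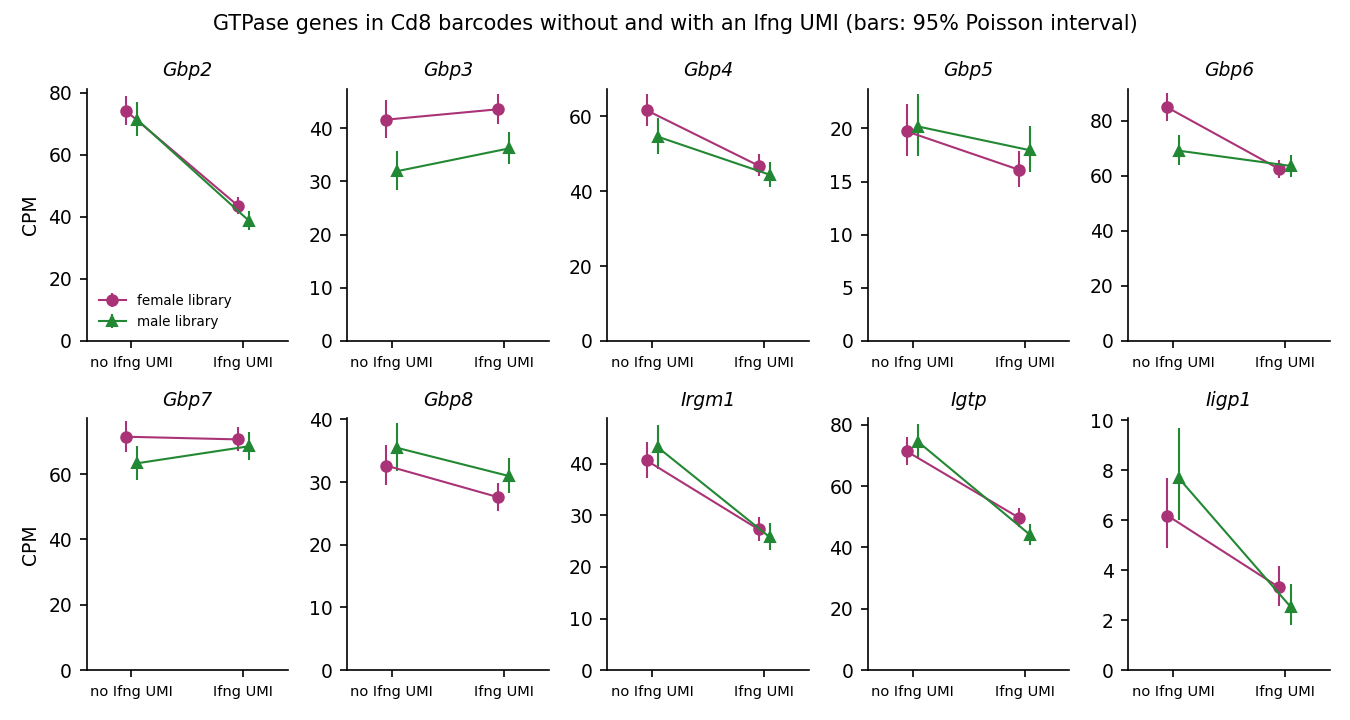
CPM of each gene (y axis, from 0) in Cd8 barcodes without and with an Ifng UMI, female library in circles and male in triangles, with 95% Poisson intervals that cover counting error only. The lines fall in both libraries for 8 genes and do not for Gbp3 in either library or for Gbp7 in the male.

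In other Cd4 barcodes, Ifng was found in 59 of 248 female and 31 of 231 male barcodes, and the libraries went opposite ways. The 10 genes stood at 772 CPM with and 666 without Ifng in the female library (log2 0.21), but at 344 and 607 CPM in the male (log2 -0.82), where Ifng-detected barcodes held 76 GTPase UMIs. None of the 10 passed in edgeR or DESeq2, where 0.0202% of genes were higher and 0% lower. The higher share is 2 genes, and Ifng, which divided the barcodes, is among them. At an unadjusted p under 0.05 in edgeR, Gbp3 was higher (86.1 and 45.2 against 38.2 and 29.4 CPM) and Gbp6 lower (66.4 and 45.2 against 102 and 77.8 CPM). Of the others, Gbp2 gave a fitted log2 difference of 0.02, Gbp7 0.05, Igtp -0.15, Gbp4 -0.20, Gbp5 -0.22, Gbp8 -0.41, Irgm1 -0.50 and Iigp1 -1.74. Igtp had a wide gap between libraries, at 209 against 154 CPM in the female and 36.2 against 133 in the male. Median depths were within 5202 to 5271 UMIs in these 4 groups.

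Female over male ratios were small in Cd8 barcodes. The summed 10 genes had a log2 ratio of 0.08 (95% interval 0.05 to 0.12, counting error only), and 0 of 9 measured genes (all but Iigp1, under 10 CPM in both) reached 1.5-fold either way, where 0.574% of 7667 genes were higher in the female and 1.37% lower. Gbp3 had the highest ratio, 0.31 (0.19 to 0.43), and Gbp8 the lowest, -0.15 (-0.28 to -0.01), with the others between -0.10 (Gbp5) and 0.12 (Gbp4). The summed ratio was 0.17 under 20000 UMIs. In Treg barcodes the summed ratio was 0.18 (0.11 to 0.26) and again 0 of 10 genes reached 1.5-fold, where 7.3% of 8127 genes were higher and 6.37% lower. Irgm1 (0.49, 0.19 to 0.80), Iigp1 (0.41, 0.17 to 0.66), Igtp (0.35, 0.21 to 0.50) and Gbp2 (0.30, 0.08 to 0.53) had intervals above 0, and the others lay between -0.35 (Gbp8) and 0.12 (Gbp4). The epithelial markers and Lyz2 given above were higher in the female Treg sum. The summed ratio was 0.30 without barcodes holding other lineages, 0.34 under 20000 UMIs and 0.35 among barcodes of 5000 to 10000 UMIs.

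In other Cd4 barcodes the summed ratio was 0.30 (0.16 to 0.43), but 0.027 after thinning, 0.12 with equal weight per barcode and 0.54 among barcodes of 5000 to 10000 UMIs. Of the members, 2 of 10 genes reached 1.5-fold in favour of the female library and 1 of the male, where 8.05% of 7925 genes were higher and 7.7% lower. Gbp3 had a log2 ratio of 0.66 (0.11 to 1.22) and Gbp7 of 0.65 (0.18 to 1.13). Iigp1 went the other way, at -2.04 (-3.01 to -1.16), with 14 female and 50 male UMIs. The others lay between -0.20 (Gbp8) and 0.52 (Igtp). The male barcodes of this class also held 159.7 CPM of neutrophil markers, all from S100a8 and S100a9 (2 of 4 detected, with Csf3r and Cxcr2 at 0), against 0 in the female, and its part in these ratios was not tested. Ifng itself was higher in the female other Cd4 barcodes (163 against 74.0 CPM) and lower in the female Cd8 barcodes (181 against 263). Natural killer markers summed to 31.5 CPM in female other Cd4 barcodes (Ncr1 17.0, Klrb1c 9.46, Eomes 5.04 and Klra8 at 0). In the male they summed to 5.08, with Ncr1 and Klra8 at 0. The part of natural killer cells in the Ifng values of this class, and in its division by Ifng detection, was not tested.

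Keratin-positive barcodes gave a summed ratio of 0.49 (0.27 to 0.70), which was 0.90 without barcodes holding other lineages, 0.87 after thinning and 0.77 under 20000 UMIs. In this class 3 of 8 measured genes reached 1.5-fold in favour of the female library and none of the male, where 10.7% of 7834 genes were higher and 5.88% lower. Gbp4 (0.80, -0.05 to 1.72) and Gbp3 (0.68, -0.24 to 1.68) had intervals that included 0, and that of Igtp (0.63, 0.15 to 1.12) did not. The other measured genes lay between 0.24 (Iigp1) and 0.54 (Gbp6). With 38 and 27 barcodes, and 1 of them holding over 40% of several genes, single barcodes can set these ratios.

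**Figure D5:**
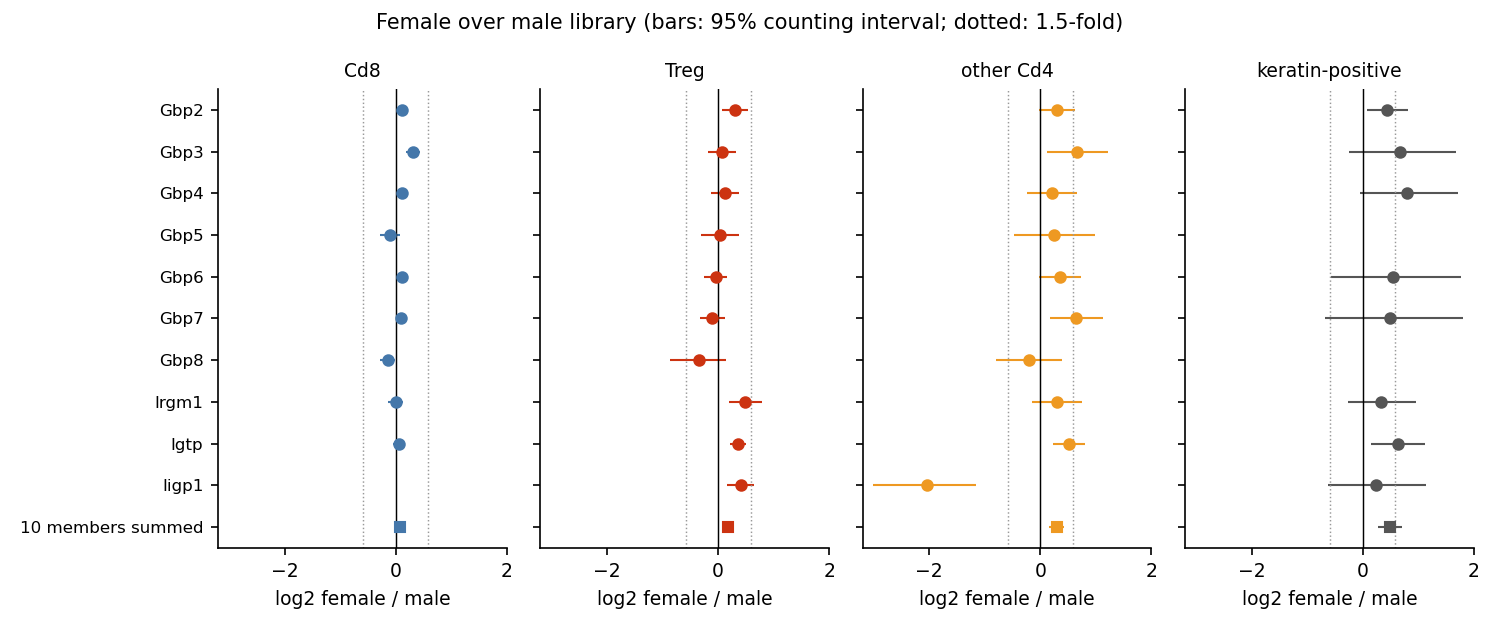
Log2 ratio of female over male CPM (x axis) for each gene and for the 10 summed, in 4 barcode classes, with exact 95% intervals that cover counting error only; dotted lines mark 1.5-fold and genes under the count minimum are left out. In Cd8 and Treg all points lie within the dotted lines, and Iigp1 in other Cd4 lies at -2.04.

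Other interferon-inducible GTPases had like patterns in part. Of 12 further interferon-inducible GTPases listed, 8 were among the counted genes and 6 passed the filter on low counts (Gbp2b and F830016B08Rik did not). Of those 6, 5 were higher in Treg than in Cd8 barcodes, where 13.7% of all genes were. Irgm2 (56.9 and 58.9 against 8.44 and 9.94 CPM) had a log2 difference of 2.50 ± 0.19 (adjusted p = 8.72e-05). Tgtp1 (51.9 and 49.5 against 14.4 and 21.3 CPM) rose by 1.37, Gbp10 by 1.25, Tgtp2 by 1.05 and Gbp9 by 0.63, while Gvin1 gave 0.55 (adjusted p = 0.101). In Cd8 barcodes with Ifng, 4 of the 6 were lower, where 2.17% of all genes were. Tgtp1 fell by 1.76 (8.55 and 9.95 against 23.9 and 40.04 CPM, adjusted p = 0.00115), Tgtp2 by 0.92, Irgm2 by 0.76 and Gbp9 by 0.61. Keratin-positive barcodes were lower for 5 of 6, where 33% of all genes were. Tgtp2 fell by 2.52 and Gbp9 by 1.75, Gvin1, Tgtp1 and Gbp10 were read there from at most 3 UMIs a library, and Irgm2 gave -0.23 (adjusted p = 0.528). Against Cd8, other Cd4 barcodes were higher for Tgtp1 (1.42), Irgm2 (0.87) and Tgtp2 (0.64), where 9.57% of all genes were higher. Against other Cd4, Treg barcodes were higher for Gbp10 (1.96) and Irgm2 (1.63), where 6.72% of all genes were higher.

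Upstream of the GTPases, 6 of 11 genes of the ligand, receptor and signalling list were higher in Treg than in Cd8 barcodes and 2 lower, with a list median of 0.82. Of all genes tested in this comparison, 13.7% were higher and 12.9% lower, which also stands beside the counts of the next lists. The receptor chain Ifngr2 rose by 1.83, while Ifng fell by 3.72 (14.0 and 22.9 against 181 and 263 CPM) and Irf8 by 1.93. After thinning, Ifng was found in 4.05% and 2.09% of Treg barcodes and 2.66% and 2.65% of keratin-positive ones. The latter are few, and some also passed the Cd8 gate, so no background level can be read from them. Of 20 other interferon gamma targets tested, 13 were higher in Treg and 0 lower. They were led by H2-Aa (3.20 ± 0.52), Cd74 (2.905 ± 0.27) and H2-Ab1 (2.41 ± 0.33), which present antigen on class II molecules, and by the chemokine Cxcl10 (1.83 ± 0.21). H2-Aa and H2-Ab1 are also markers of antigen-presenting cells, and the list of 10 such markers (10 detected in female and 6 in male Treg, with C1qa, C1qb, Flt3 and Xcr1 at 0 in the latter) summed to 435 and 323 CPM in Treg against 31.3 and 81.3 in Cd8. The Treg sums came mostly from H2-Aa (175 and 183 CPM), H2-Ab1 (93.4 and 133) and, in the female only, Lyz2 (152 against 0.818). None of the other listed markers exceeded 5.49 CPM in Treg. The part of such cells in these values was not tested. Of 12 type I interferon targets, 3 were higher in Treg (Oas1a 2.84, Rtp4 1.53, Isg15 1.52) and 1 lower (Ifit3 -2.11).

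Genes that work with the GTPases were called in both directions, where 13.7% of all genes were higher and 12.9% lower. Of 10 genes of the autophagy-protein conjugation system, on which targeting of the GTPases to vacuoles depends, 3 were higher in Treg than in Cd8 barcodes and 1 lower, with a median of -0.06. Atg7 rose by 0.84, Map1lc3b by 0.42 and Gabarap by 0.37, and Gabarapl1 fell by 0.59. Among 8 tested genes of cytosolic sensing and inflammasomes, 4 were higher, among them Casp4 (1.06), Zbp1 (1.02) and Tmem173 (0.92), and 2 were lower, with Cgas at -1.77. Of 7 genes that restrain the pathway, Socs3 (0.66) and Ptpn2 (0.56) were higher, Ptpn6 (-0.97) was lower and 4 did not pass.

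In other Cd4 against Cd8 barcodes, where 9.57% of all genes were higher and 10.4% lower, the type I interferon targets had the highest list median, 0.89. Of 12, 6 were higher and none lower, led by Oasl2 (2.13), Rtp4 (1.37), Irf7 (1.25) and Oas1a (1.23). Of 11 signalling genes 3 were higher and 1 lower, with Ifngr2 (2.44), the kinase Jak2 (1.70) and Irf9 (0.63) against Irf8 (-2.69). Of 7 restraint genes 3 were higher, Socs3 (2.04), Ptpn11 (0.82) and Pias1 (0.48), and Ptpn6 was lower (-0.81). Of 20 other interferon gamma targets, 2 were higher (Cd274 1.12, H2-K1 0.30) and 1 lower (Psmb9 -0.73), shares near or under those of all genes. Casp4 (1.71) and Casp1 (0.87) were higher among 8 sensing genes and none lower, and of 10 autophagy genes Map1lc3a was higher (0.77) and Gabarapl1 lower (-0.65).

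In Treg against other Cd4 barcodes, where 6.72% of all genes were higher and 6.69% lower, 13 of the 20 other interferon gamma targets were higher and 1 lower. They were led by H2-Aa (3.90), H2-Ab1 (2.88), Cd74 (2.76) and Cxcl10 (1.34). The list of antigen-presenting cell markers, which holds H2-Aa and H2-Ab1, summed to 44.8 and 14.5 CPM in other Cd4 barcodes. In keratin-positive barcodes it summed to 228 and 234 CPM. The keratin-positive sums came mostly from H2-Aa (139 and 153 CPM) and H2-Ab1 (86.3 and 80.2). None of the other listed markers exceeded 1.91 CPM there, and Csf1r, C1qa, C1qb, Adgre1 and Xcr1 were detected in neither library. The part of antigen-presenting cells in these values was not tested. Of 12 type I targets 1 was higher, Oas1a (1.61). Of 11 signalling genes 1 was higher and 1 lower, Ifng (-2.76), and of 7 restraint genes Socs3 (-1.38) and Ptpn11 (-0.99) were lower. Pycard (0.87), Zbp1 (0.75) and Tmem173 (0.66) were higher among 8 sensing genes and Casp1 (-0.80) lower, and Atg7 (1.10) was higher and Map1lc3a (-1.04) lower among 10 autophagy genes.

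In keratin-positive against Cd8 barcodes, where 30.4% of all genes were higher and 33% lower, 8 of the 20 other targets were higher and 11 lower, with Bst2 (3.40) and H2-Aa (3.23) at one end and Icam1 (-2.75) and Psmb8 (-2.58) at the other. Signalling genes were lower for 9 of 11 and higher for 1, with Ifng (-4.09), Ifngr1 (-3.52), Irf8 (-3.03) and Jak1 (-2.14) lowest. Of 12 type I targets 3 were higher, among them Oasl2 (2.28), and 3 lower, Ifit1 (-1.34), Ifit2 (-2.74) and Ifit3 (-2.45). Of 8 sensing genes 6 were lower, led by Pycard (-3.28), Cgas (-2.38), Casp1 (-1.77) and Aim2 (-1.49), and 1 higher. Of 10 autophagy genes 4 were lower, Gabarapl1 (-1.39), Atg12 (-1.04), Map1lc3b (-0.79) and Gabarapl2 (-0.69). Of 7 restraint genes Ptpn6 (-2.29), Ptpn2 (-1.28) and Pias1 (-1.21) were lower and Socs1 (0.86) higher.

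In Cd8 barcodes with Ifng, where 2.17% of all genes were lower and 2.71% higher, no other interferon gamma target passed in edgeR. The signalling genes Ifngr2 and Irf1 were lower, Irf1 by a log2 of -0.53 (101 and 118 against 137 and 180.2 CPM, adjusted p = 0.0222) and Ifngr2 by -1.86, as were Socs3 (-1.22) and Socs1 (-0.59). Of 12 type I targets, 4 were lower there, Oasl2 (-1.88), Rtp4 (-1.08), Ifit1 (-0.87) and Ifit3 (-0.87). None of the autophagy or sensing genes passed. In other Cd4 barcodes with Ifng, none of the lists held a called gene other than Ifng, by which these barcodes were divided.

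Genes whose levels over the 8 class and library values were most like the mean of the 10 were Atp6v1h (Pearson r 0.996), Slc25a51 (0.99), Klrg1 (0.99), Commd7 (0.99) and Yaf2 (0.99), among 7712 compared. With 4 classes in 2 libraries this likeness is mostly that of the class order. Over thinned Cd8 barcodes, where class plays no part, genes among the most like the summed 10, of 5674 compared, were Ifi47 (r 0.33 and 0.28 in the female and male libraries), Tgtp1 (0.25 and 0.25), Zbp1 (0.24 and 0.27), Samhd1 (0.25 and 0.24), Isg15 (0.23 and 0.22), Gbp9 (0.20 and 0.23) and Tgtp2 (0.26 and 0.20). All barcodes of a library share its preparation, so these values describe the 2 libraries only.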

How the data were processed

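The values deposited by the authors are raw UMI counts, per the file headers, which name Cell Ranger 7.0.1. The submitters' processing notes list GRCm38 and Seurat 5 without saying what each was used for, and the annotation and cell-calling settings are not given in the sources used here. The female library held 3658 barcodes and 55880364 UMIs, the male 3708 and 50946624.

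A barcode was kept if it held 500 genes or more and its mitochondrial UMIs made up 10% or less, and no doublet caller was run. Classes were set by the gate genes named in the report, and the same barcode can be in the keratin-positive and a T cell class. UMIs were summed per class and library (8 sums) and, for 3 T cell classes, per Ifng detection (12 sums). All genes were fitted with edgeR 4.0.16 (TMM, filterByExpr, quasi-likelihood F test, library as a block, R 4.3.3), with Benjamini-Hochberg adjusted p-values over 10767 and 9898 genes and calls at 0.05. The library is a block because each class was taken from both libraries. The spread is that of class by library differences, with 3 and 5 residual degrees of freedom. The quasi-likelihood fit draws the spread of each gene towards that of all genes, which adds to these degrees of freedom in the test. Each SE was derived from the test, as the absolute log2 difference divided by the square root of its F value. Ifng-detected Treg barcodes (15 and 10) were too few for a count of calls.

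Ratios between the sexes carry exact 95% intervals of a ratio of Poisson counts, over genes with at least 20 UMIs in both libraries together and 10 CPM in 1. Intervals cover counting error only. Thinning to 3000 UMIs left out shallower barcodes, and unthinned shares have Clopper-Pearson intervals. Positions are those of GENCODE M21 (GRCm38), to which 99.8% of gene identifiers matched. The steps were tested on simulated counts. The members and gene lists were chosen with earlier results of these data known. The rule for named genes was all 10 members in each comparison, up to 4 called genes with the largest difference per further list, and the most alike genes by Pearson r. Between the sexes some members are given by their range, and 1 gene that the rule selects is not reported here. Alternatives were DESeq2 1.42.0, other filters, gates, depth ranges, weights and scales, no library block, and each library left out. The depth range of 5000 to 10000 UMIs and the scale of UMIs per barcode were chosen after seeing the data.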

Additional observations from a re-analysis of the deposited data

How the results depend on the processing

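Of 489 values of single genes under an alternative, 465 kept their side of the threshold, 15 lost the call, 7 gained it and 2 reversed. The 2 reversals were Gbp2 (-1.42) and Iigp1 (-7.62) in keratin-positive barcodes under 20000 UMIs against Cd8, where only 7 and 3 barcodes remained and Iigp1 had no UMI, so that its value depends on the prior count of the fit. Of the 465, 29 were uncalled values that changed sign.

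Counts of genes called moved by over 1.5 times in 6 cases. Other Cd4 against Cd8 gave 2 among barcodes of 5000 to 10000 UMIs, keratin-positive against Cd8 4 under 20000 UMIs, and Ifng in other Cd4 2 by 1.5-fold in both libraries with no model. Ifng in Cd8 gave 0 with no replicate block, 1 under 20000 UMIs and 5 with at least 3 Ifng UMIs. The fit without the block changed no other count.

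For the summed genes, UMIs per barcode in place of CPM gave a log2 of 0.876 for Treg and -0.603 for other Cd4 against Cd8, 1.48 for Treg against other Cd4, 1.04 for keratin-positive against Cd8 and 0.569 for Ifng in Cd8, and 3 of these 5 reversed. Under 20000 UMIs the values in that order, without Treg against other Cd4, were 1.53, 0.362, -2.82 and -0.189, and with equal weight per barcode 1.58, 0.408, -1.2 and -0.317. Barcodes of 5000 to 10000 UMIs gave 1.37 for Treg and 0.251 for other Cd4 against Cd8 and -0.266 for Ifng in Cd8. Treg against other Cd4 was 1.22 without barcodes of other lineages. Ifng in Cd8 was -0.456 with at least 3 Ifng UMIs and -0.298 after thinning. With either library alone, Ifng in other Cd4 ranged from -0.82 (male library) to 0.213 (female library), a reversal, and the other 5 class and Ifng comparisons kept their direction.

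Female over male, the summed log2 moved to 0.171 in Cd8, 0.338 in Treg and 0.772 in keratin-positive barcodes under 20000 UMIs, and to 0.158, 0.354 and 0.54 in Cd8, Treg and other Cd4 barcodes of 5000 to 10000 UMIs. Equal weight gave 0.137, 0.292 and 0.123 in these 3 classes. Without other lineages it was 0.303 in Treg and 0.897 in keratin-positive barcodes, and after thinning 0.0266 in other Cd4 and 0.867 in keratin-positive barcodes. The cause of these moves was not tested. Keratin-positive barcodes of 5000 to 10000 UMIs were too few for a value, and leaving out a library left no residual degrees of freedom for a test. For female over male, no paired analysis was possible because each sex has 1 library. The class and Ifng comparisons were paired within a library by the block. The low count of keratin-positive barcodes and the 1 library per sex limit precision.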

Other observations

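Klrg1, a receptor of differentiated T cells, was among the genes most like the 10 GTPases over classes, and a split of Treg barcodes by it was chosen after these values were seen and has no test. Treg barcodes with a Klrg1 UMI (134 female, 193 male) held 1632 and 1383 CPM of the 10 genes, and those without (99 and 152) held 1259 and 1166. Igtp stood at 469 and 359 CPM with Klrg1 and 309 and 244 without. Iigp1 did not keep one direction, at 163 and 105 CPM with and 122 and 116 without. Neither did Gbp2 (176 and 130 against 146 and 134 CPM) or Gbp4 (141.6 and 114.1 against 101.3 and 114.3). Gbp8 was lower with Klrg1 in both libraries (27.1 and 33.5 against 29.1 and 38.8 CPM). Median depths were 6931 and 6431 UMIs with Klrg1 and 5821 and 5388 without.

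The few Treg barcodes with an Ifng UMI held 1373 (15 barcodes, female) and 1062 CPM (10 barcodes, male) of the 10 genes, against 1478 and 1307 CPM in the other Treg barcodes. Barcodes in which all 10 genes were found numbered 10 and 5 in Cd8, 3 and 4 in Treg, 2 and 1 in other Cd4, and 1 and 1 in the keratin-positive class.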
